A study of Homo sapiens with 3 samples.

Results

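The 41 genes described here encode the machinery that brings proteins into human mitochondria, and they were examined for ZBTB11 binding at their promoters. They were picked by name: every GENCODE protein-coding gene whose symbol starts with TOMM or TIMM, except TIMMDC1, plus SAMM50, MTX1, MTX2, PAM16, GRPEL1, GRPEL2, DNAJC15, DNAJC19, HSPA9, CHCHD4, GFER, PMPCA, PMPCB, OXA1L and ROMO1. No binding value entered this rule, but earlier results of these data were known when the genes were chosen. They are 41 of 20033 protein-coding genes and lie on 19 chromosomes. For each gene, the best peak was the ZBTB11 peak with the smallest p-value that reached within 3 kb of any of its transcript starts. TIMM23B-AGAP6 is a readthrough annotation that starts at TIMM23B and shares its best peak, so the 40 genes with a peak have 39 distinct best peaks.

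ChIP-seq of ZBTB11, a zinc finger protein of the BTB family, was performed in cells of the NCI-H1299 line, a human lung cancer line in long use, of wild-type genotype, untreated and fixed with formaldehyde. A library immunoprecipitated with a ZBTB11 antibody was set against a library made with normal IgG, with 1 library per group, so no value below has a replicate check, and differences between the libraries compare those libraries and not the antibodies in general. The Input library was not analysed here. A peak list carries no expression levels, so the identity of the line was not checked against marker genes.

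Most mitochondrial proteins are made in the cytosol and carry targeting signals that import complexes read. The TOM complex is the entry gate of the outer membrane, and behind it the routes divide: the SAM complex inserts barrel proteins into the outer membrane, the MIA pathway and the small TIM chaperones serve the space between the membranes, TIM22 inserts carrier proteins into the inner membrane, and TIM23 with its PAM motor moves proteins with a presequence into the matrix. There the processing peptidase removes the presequence, and OXA1L inserts proteins into the inner membrane from the matrix side.

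The sequence CCGGAAG or CAGGAAG is the consensus that the study derived from its ZBTB11 peaks, and its GGAA core is also the one that ETS-family factors recognise. It was searched on both strands in hg38 within 50 bp of each best summit. Of the import genes, 14 held it there, and in all 14 the copy nearest to the summit was CCGGAAG. Because the consensus was found in these same peaks, its presence under them is a description and not an independent check. The 30 bases around that copy are shown for the tallest such peak of each import complex or step that has one, and for TOMM40, whose copy lay farthest from its start, because the values below describe the summits beside them. They are written 5′ to 3′ on the strand that reads CCGGAAG, with the consensus in capitals.
TIMM29, chr19:10928710-10928739, minus strand: cgccaactttaCCGGAAGtggcttcccaac
GRPEL2, chr5:149345401-149345430, plus strand: ccatcgggcaaCCGGAAGcatagcgttcct
TOMM22, chr22:38681946-38681975, minus strand: tgtaggggacaCCGGAAGcggaaaggaggt
ROMO1, chr20:35699355-35699384, plus strand: tgcccggcgctCCGGAAGcgattcatcggg
TIMM8B, chr11:112086784-112086813, minus strand: tgctgggtgaaCCGGAAGtcgagaggcggt
TOMM40, chr19:44891665-44891694, plus strand: gaggagtgccaCCGGAAGtgcaagggtgag
OXA1L, chr14:22767345-22767374, minus strand: ggctgcgggggCCGGAAGccgcaaggaaga
The copy at GRPEL2 lay upstream of the gene's start, the copy at TIMM8B lay across it, and the copy at TOMM40 was centred 425 bp inside the gene.

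The upstream bases of 3 genes are shown at greater length, because more than 1 copy of the consensus or a very tall summit falls in them. These stretches are RefSeq promoter bases of GRCh38.p14 that lie outside annotated exons, on the strand of the gene, and a copy on the other strand reads CTTCCGG.
GRPEL2, chr5:149345334-149345429, plus strand: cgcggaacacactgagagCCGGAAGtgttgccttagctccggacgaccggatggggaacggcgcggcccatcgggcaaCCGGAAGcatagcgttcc
TIMM29, chr19:10928682-10928810, plus strand: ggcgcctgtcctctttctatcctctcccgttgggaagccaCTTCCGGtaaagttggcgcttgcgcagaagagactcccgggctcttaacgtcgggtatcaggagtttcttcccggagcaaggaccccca
TOMM70, chr3:100401090-100401339, minus strand: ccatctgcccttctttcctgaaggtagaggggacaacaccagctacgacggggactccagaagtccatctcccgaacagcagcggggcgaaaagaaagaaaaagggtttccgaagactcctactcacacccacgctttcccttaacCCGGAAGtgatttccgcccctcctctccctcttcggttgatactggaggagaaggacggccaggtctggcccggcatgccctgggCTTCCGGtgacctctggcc
GRPEL2 carried 2 copies on the same strand here and 3 within 50 bp of its summit. TOMM70 carried 2 copies on opposite strands, of which 1 was within 50 bp of the summit.

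ZBTB11 peaks were listed at nearly all import genes, and their heights spanned a wide range. A peak was listed within 3 kb of a start for 40 of the 41 genes (97.6%), where 87.7% of all protein-coding genes had one. With the q-value limited to 0.05, the count was 35 of 41 (85.4%), against 55.3% of all protein-coding genes. A peak of at least 100 fragments at its summit was found at 6 of 41 (14.6%), against 8.33%. The number of fragments at each summit was solved from the deposited fold enrichment and p-value, and its intervals, exact Poisson at 95%, cover counting error only. The median best peak of the import genes held 29 fragments, with a range of 6 to 471 and quartiles of 11 and 79.25, whereas the median over all protein-coding genes with a peak was 11. Of the import genes, 20 (48.8%) had at least 30 fragments, compared with 22.1% of all protein-coding genes. The same share was 43.6% for mitochondrial and 41.4% for cytosolic ribosomal protein genes.

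In the whole series the ZBTB11 list held 346891 peaks on 24 chromosomes with a median of 5 fragments, of which 26747 passed the q-value threshold, so most listed peaks were weak. The IgG list held 26712 peaks on 4 chromosomes, with a median of 6 fragments and 1222 past the threshold. Local background was never below 1.35 fragments for ZBTB11 and 1.55 for IgG. The 31 bases at the centre of every best summit of the import genes occurred at 1 place in the genome, so none of these summits lay on an exact repeat of that length.

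**Figure D1:**
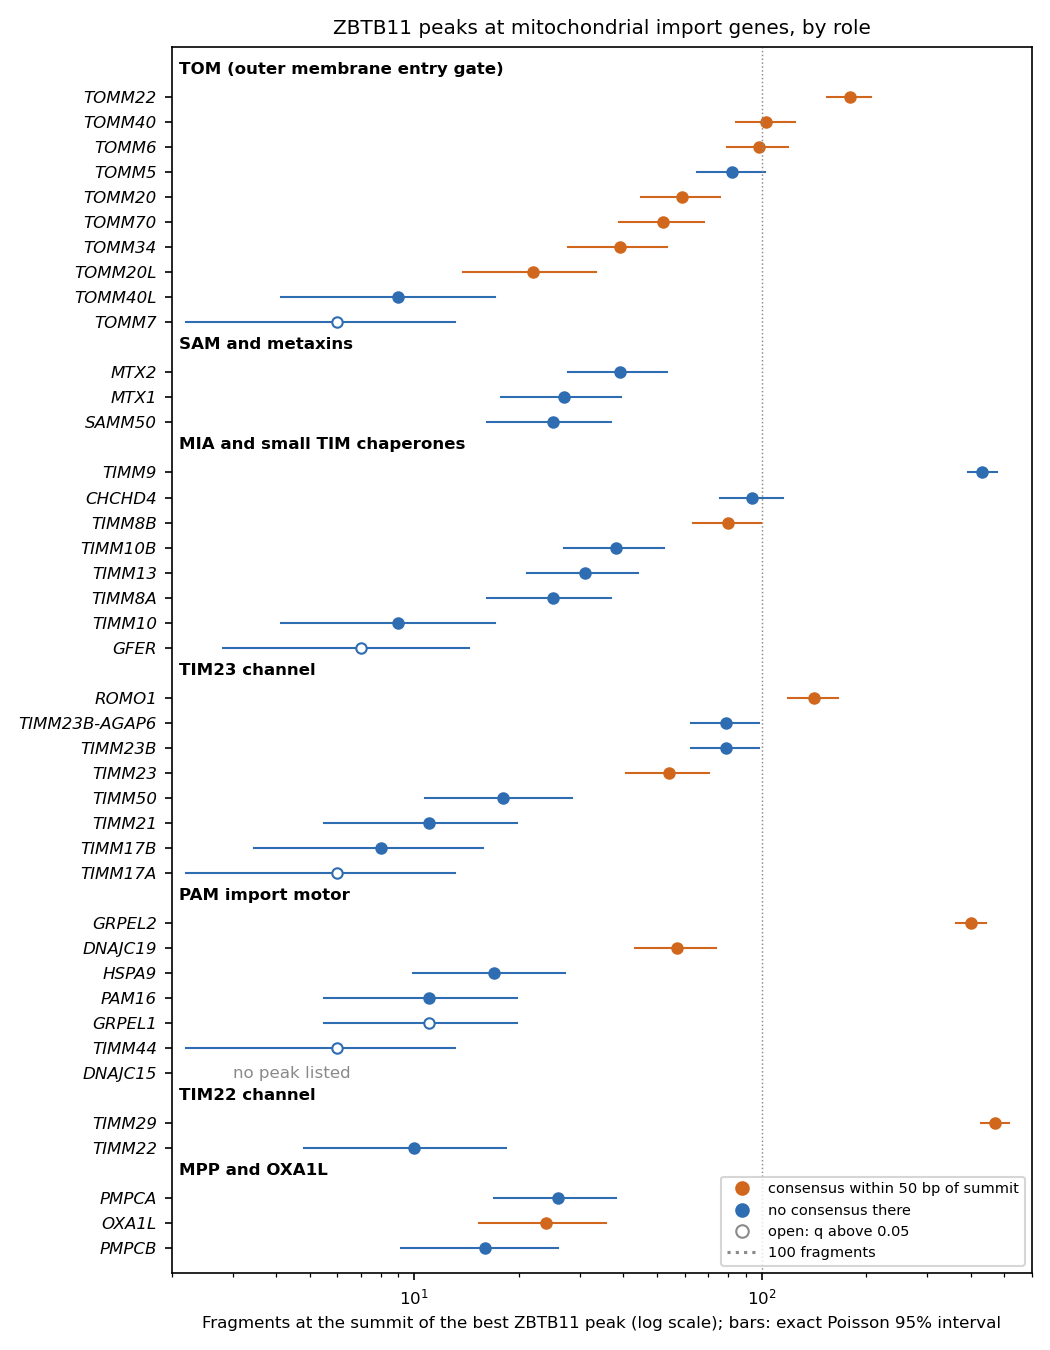
Fragments at the summit of the best ZBTB11 peak (x axis, log scale) for each import gene (y axis), grouped by role, with bars for the exact Poisson 95% interval. Orange points have the consensus within 50 bp of the summit, open points did not pass the q-value threshold, and TIMM29, TIMM9 and GRPEL2 stand at 401 to 471 fragments, with TOMM22 next at 179.

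TIMM29, a subunit of the TIM22 carrier translocase, had the tallest peak of the set. Its summit on chromosome 19 held 471 fragments (95% interval 429 to 516) over a background of 23.6, a 19.2-fold enrichment, and it stood at rank 93 among all ZBTB11 peaks by p-value. It lay 46 bp upstream of the gene's start. TIMM22, the channel of the same translocase, had 10 fragments (4.8 to 18.4) 49 bp inside its start. TIMM29 and TIMM22, the genes grouped under TIM22 here, therefore stood near opposite ends of the range, and their intervals did not overlap. TIMM29 shares its promoter region with YIPF2, as described below.

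The small TIM chaperones and the MIA pathway, which guide proteins through the intermembrane space, comprised 8 genes, of which 7 passed the threshold, with a median of 34.5 fragments. TIMM9, a small TIM chaperone, had 432 fragments (392 to 475), an 18.8-fold enrichment, 56 bp upstream of its start on chromosome 14, at rank 244. CHCHD4, the oxidoreductase that folds incoming proteins by forming disulfide bonds, had 94 fragments (76 to 115) with its summit 310 bp downstream of the start, in an intron. TIMM8B had 80 (63.4 to 99.6), 30 bp upstream of its start. The remaining chaperones were lower: TIMM10B at 38, TIMM13 at 31, TIMM8A at 25 and TIMM10 at 9 fragments. GFER, the oxidase that recharges CHCHD4, had a listed peak of 7 fragments that did not pass the threshold.

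The TIMM9 peak was the tallest without the consensus: its whole 876 bp held no copy, and the closest match to CCGGAAG within 50 bp of the summit had 2 mismatches. The 30 bases at the summit are shown to be read beside the stretches above.
TIMM9 summit, chr14:58427572-58427601, plus strand: tgtttccacccggagaggaatggaagagca
It was also the only import gene with a second peak past the threshold, which held 57 fragments at chr14:58428268-58428568. The other 25 secondary peaks near import genes did not pass it, and the 26 secondary peaks together ranged from 3 to 57 fragments.

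GRPEL2, a nucleotide exchange factor of the PAM motor, had 401 fragments (363 to 442), a 20.1-fold enrichment, at rank 280 and 35 bp upstream of its start. The rest of the motor had much lower values. DNAJC19, a J-protein that stimulates the motor's chaperone, had 57 (43.2 to 73.9), HSPA9, the chaperone itself, had 17, and PAM16, which controls the J-protein, had 11. GRPEL1 had 11 fragments at a summit 635 bp upstream and TIMM44, which tethers the motor to the channel, had 6 at a summit 2136 bp from its nearest annotated transcript start, in a 3′ UTR, and neither passed the threshold. Another TIMM44 peak of 6 fragments, with a larger p-value, stood 73 bp from a start. DNAJC15 was the only import gene with no listed peak. Of the 7 motor genes, 4 passed the threshold, with a median of 14 fragments over the 6 with a peak.

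The TOM complex and its helpers had the most genes with the consensus at the summit. Of 10 genes, 9 passed the threshold, and the median was 55.5 fragments. TOMM22, a receptor of the gate, had 179 fragments (154 to 207), the largest fold enrichment of the import genes at 21.2, 22 bp upstream of its start. TOMM40, the channel itself, had 103 (84.1 to 125) with its summit 406 bp downstream of the start, in a coding exon. The small subunits TOMM6 and TOMM5 had 98 and 82 fragments, and the receptors TOMM20 and TOMM70 had 59 and 52. TOMM34, a cytosolic co-chaperone of precursor proteins, had 39, and TOMM20L, a relative of TOMM20, had 22. The 2 lowest were TOMM40L, a relative of TOMM40, at 9 fragments and TOMM7, a small subunit, at 6, 894 bp inside the gene in an intron and not past the threshold.

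The TIM23 channel genes spread widely. ROMO1, a small inner membrane protein found with this channel, had 141 fragments (119 to 166), a 14.3-fold enrichment, 27 bp upstream of its nearest start, at a base annotated as 5′ UTR. TIMM23B and the readthrough that shares its peak had 79 (62.5 to 98.5), and TIMM23, the channel protein, had 54 (40.6 to 70.5). The presequence receptor TIMM50 had 18, TIMM21, which links the channel to respiratory complexes, had 11, and TIMM17B, a partner of the channel, had 8. TIMM17A had 6 fragments at a summit 908 bp upstream and did not pass the threshold. In this group 7 of 8 genes passed, with a median of 36 fragments, which is 18 over 7 genes when the readthrough that repeats the TIMM23B peak is left out.

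The SAM group and the matrix group, of 3 genes each, held 16 to 39 fragments. SAMM50, the barrel of the SAM complex, had 25 fragments, and the metaxins MTX1 and MTX2, its partners, had 27 and 39. The peptidase subunits PMPCA and PMPCB had 26 and 16, and OXA1L had 24. All 6 passed the threshold and none reached 100 fragments.

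Just inside the q-value threshold stood TOMM40L, with a −log10 q of 1.3, and just outside stood GRPEL1, with 1.08. The other listed peaks outside it were those of GFER at 0.823, TOMM7 and TIMM17A at 0.724, and TIMM44 at 0.277. These 5 peaks held 6 to 11 fragments, which overlaps the 8 to 11 fragments of TIMM17B, TIMM10, TOMM40L, TIMM22, PAM16 and TIMM21 inside it, so at this depth the genes on either side of the threshold were not separable by height.

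**Figure D2:**
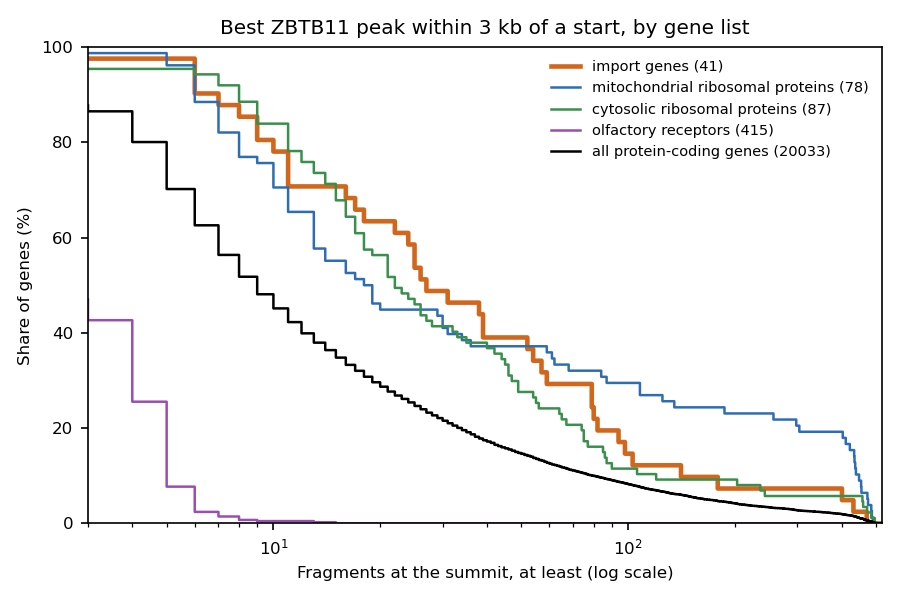
Share of genes (y axis, %) whose best ZBTB11 peak held at least the number of fragments on the x axis (log scale), for the import genes, 3 other gene lists and all protein-coding genes. The import genes reached 48.8% at 30 fragments against 22.1% for all protein-coding genes, and 14.6% against 8.33% at 100. At 30 fragments the mitochondrial and cytosolic ribosomal lists reached 43.6% and 41.4%.

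Other gene lists give a sense of scale. Of 78 mitochondrial ribosomal protein genes 78.2% passed the threshold and 29.5% had at least 100 fragments, with a median of 19. Of 87 cytosolic ribosomal protein genes these shares were 88.5% and 11.5%, with a median of 24. Olfactory receptor genes, 415 in all and silent in most tissues, passed in 2.17% and reached 100 fragments in none. The import genes thus lay between the ribosomal lists in their share of peaks of at least 100 fragments, in a description without a test.

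The 33 proteases, chaperones and membrane-organising genes that work beside the import machinery were also counted. Of these, 25 (75.8%) passed the threshold and 6 (18.2%) had at least 100 fragments, with a median of 27. The tall ones were PHB2, a prohibitin, at 474, TIMMDC1, an assembly factor of respiratory complex I, at 249, HSPD1, the matrix chaperonin, at 164, MICOS10, which shapes the inner membrane, at 145, HTRA2, a protease, at 117, and XPNPEP3, a peptidase, at 101. The peak counted for MICOS10 lay 1144 bp from its start and 8 bp from that of CAPZB, and the peak counted for HSPD1 lay 820 bp from its start and 130 bp from that of MOB4, so both were nearer to a neighbour. The lowest were CHCHD6 at 5 and TRAP1 at 4 fragments, neither past the threshold.

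The summits of the import genes sat close to their starts. Among the 35 best peaks past the threshold, 27 (77.1%) had the summit within 100 bp of a start of the gene, against 42.4% of all protein-coding genes past it, and the median distance was 40 bp against 139 bp. The same share and median were 65.6% and 63 bp for the mitochondrial ribosomal protein genes and 57.1% and 97 bp for the cytosolic ones. For the other genes that work beside import they were 48.0% and 114 bp. By GENCODE annotation 13 of the import summits lay in a 5′ UTR, 12 upstream, 7 in a coding exon and 3 in an intron. These places are given without the shares over all protein-coding genes. The rule set a window of 3 kb but did not ask for a summit near the start. The largest distances among the peaks past the threshold were those of TIMM21, 816 bp upstream, TOMM40 and CHCHD4.

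**Figure D3:**
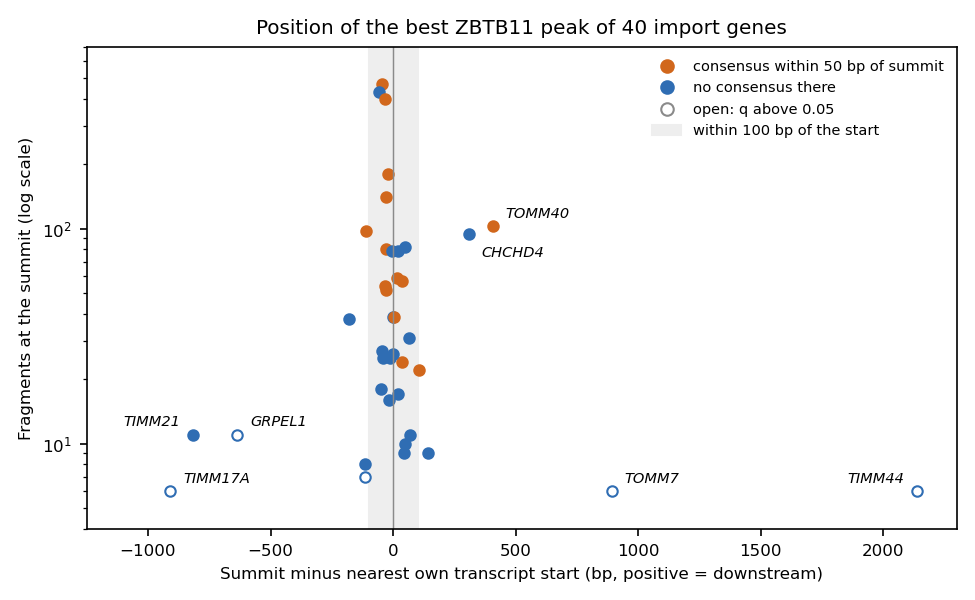
Fragments at the summit (y axis, log scale) against the distance from the summit to the nearest transcript start of the gene (x axis, bp, positive downstream) for the 40 import genes with a listed peak. Most points lie in the grey band within 100 bp of the start, CHCHD4 at 310 bp and TOMM40 at 406 bp are the peaks of over 50 fragments farthest from a start, and the weak peak of TIMM44 lies farthest at 2136 bp.

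For 30 of the 35 genes the nearest protein-coding start to the summit was the gene's own. The other 5 were ROMO1, TIMM8B, TIMM10B and TIMM21, where a neighbour's start was nearer, and the readthrough TIMM23B-AGAP6, where that of TIMM23B was nearer. Peaks at such promoters cannot be given to a single gene. No share over all protein-coding genes is given for these counts of nearest starts, so they describe the import genes only. Counting genes that share a promoter region with a protein-coding neighbour on the opposite strand, with starts at most 1 kb apart, 14 of the 41 import genes (34.1%) were divergent, against 17.7% of all protein-coding genes, 42.3% of the mitochondrial ribosomal protein genes and 39.4% of the other genes that work beside import. Of the 6 genes with at least 100 fragments, 3 were divergent, where the share among all such genes was 40.3%. These were TIMM29, whose start lay 130 bp from that of YIPF2, TIMM9, 69 bp from KIAA0586, and ROMO1, 32 bp from NFS1. TIMM8B was paired in the same way with SDHD, a subunit of respiratory complex II, 26 bp away, and CHCHD4 with TMEM43, 145 bp away. Divergent import genes had a median of 65.5 fragments and the others 24.5, and over all protein-coding genes these medians were 23 and 9. Without the readthrough that repeats the TIMM23B peak, the divergent import median was 52.

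The consensus was more frequent at the summits of the import genes than in the windows beside them. Of the 35 best peaks past the threshold, 14 (40%, exact binomial 95% interval 23.9 to 57.9) held it within 50 bp of the summit, against 22.5% of the summits of all protein-coding genes. In windows of equal size 500 bp to either side it occurred in 2 of 70 (2.86%) for the import genes and in 4.33% for all protein-coding genes. CCGGAAG alone was at 40% of the import summits and at 16.1% of all. Past the same threshold, the share of summits with the consensus was 31.1% for the mitochondrial ribosomal protein genes and 33.8% for the cytosolic ones. Both lie inside the import interval. For the other genes that work beside import it was 20.0%. The import genes are not replicates of each other, 2 of the 35 share a peak, and no test was made.

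By role, 7 of the 9 TOM genes past the threshold held the consensus at the summit, and TOMM5 and TOMM40L were the exceptions. In the intermembrane space group it was 1 of 7, in the TIM23 group 2 of 7, in the motor 2 of 4, in the TIM22 pair 1 of 2, in the matrix group 1 of 3 and in the SAM group 0 of 3. Of the 14 copies, 7 were on the strand of the gene and 7 on the opposite strand. The centre of the copy lay within 100 bp of the start in 12 and upstream of it in 10, between −97 and +425 bp.

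Of the 21 peaks past the threshold with no copy at the summit, 15 held one elsewhere in the peak and 6 held none. TIMM23B belonged to the former. Its promoter is a near copy of the promoter of TIMM23: 289 of 294 aligned bases (98.3%) were identical, with 12 more gap bases. The matching 30 bases of each are shown, since they differ at 2 positions. Capitals mark the copy nearest to the summit. At TIMM23B a further CCGGAAG follows it directly in lower case, whereas the matching bases of TIMM23, ctggaag, are not a copy.
TIMM23, chr10:45972429-45972458, minus strand: caatgtgcgccCCGGAAGctggaagcgcct
TIMM23B, chr10:49941999-49942028, minus strand: cagtgtgcgccCCGGAAGccggaagcgcct
At TIMM23 the copy was centred 13 bp from the summit. At TIMM23B it was centred 64 bp from the summit, which put it outside the window of 50 bp although the sequence was there. The 2 genes held 54 and 79 fragments, a ratio of 1.46 (95% interval 1.02 to 2.11). Reads from sequences this alike can be placed at either gene, so their separate heights are uncertain. The start of PARG on the opposite strand also lay 22 bp from that of TIMM23B, whereas TIMM23 had no such partner. The 79 fragments therefore cannot be given to TIMM23B alone.

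Taller peaks held the consensus more often. None of the 7 best peaks of 3 to 9 fragments held it at the summit, 2 of 13 (15.4%) did at 10 to 29, 7 of 14 (50%) at 30 to 99, and 5 of 6 (83.3%) at 100 or more, TIMM9 being the exception. Over all protein-coding genes the same classes gave 5.21%, 15.1%, 31.1% and 43.6%. The binomial intervals of the import classes were wide, 35.9 to 99.6% in the tallest. Past the threshold, peaks with the consensus at the summit had a median of 69.5 fragments and those without it 25, and over all protein-coding genes these medians were 46 and 18.

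**Figure D4:**
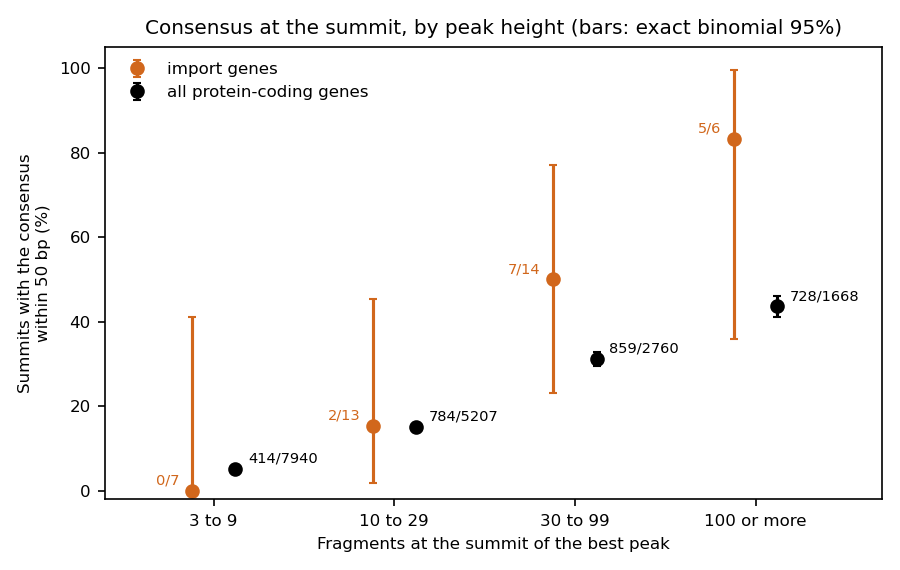
Share of best peaks with the consensus within 50 bp of the summit (y axis, %) by the number of fragments at the summit (x axis, classes), for import genes in orange and all protein-coding genes in black, with exact binomial 95% intervals and counts beside the points. The share stands at 0 of 7 import genes in the lowest class and 5 of 6 in the highest, and the import intervals are wide because the classes are small.

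The promoter sequences themselves were searched without regard to any peak. RefSeq promoter rows, from 250 bases before to 50 after the start in GRCh38.p14, were matched for 38 of the 41 genes, all but GRPEL1, TIMM8B and TOMM5. Of the 38, 19 (50%) held the consensus and 18 (47.4%) held CCGGAAG, against 30.2% and 16.7% of 15345 protein-coding genes. Among the matched genes with a peak past the threshold it was 18 of 33 (54.5%), and among the other matched genes 1 of 5 (20.0%). A match of these letters is a description of the sequence and does not show binding.

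Related genes differed in peak height by up to 36.5 times on the scale of fragments at the summit. GRPEL2 held 36.5 times the fragments of GRPEL1 (95% interval 20.2 to 73.6), and TOMM40 held 11.4 times those of TOMM40L (5.8 to 25.7). TOMM20 was 2.68 times as high as TOMM20L (1.62 to 4.6). TIMM10B was 4.22 times as high as TIMM10 (2.01 to 9.93) and TIMM8B 3.2 times as high as TIMM8A (2.02 to 5.23), but the peaks of TIMM10B and TIMM8B were nearer to the starts of ARFIP2 and SDHD and cannot be given to these genes alone. Relative to local background the gaps were smaller: the fold enrichment was 20.1 at GRPEL2 against 2.76 at GRPEL1, a ratio of 7.28, and 9.77 at TOMM40 against 3.11 at TOMM40L, a ratio of 3.14. On this scale the ratio was 2.59 for TIMM10B over TIMM10, 1.95 for TIMM8B over TIMM8A and 1.52 for TOMM20 over TOMM20L. The study's methods state that peaks were called on each antibody independently. They do not state which library gave the local background or whether the Input library was used. The local background was higher at the taller peak in each of these pairs. Whether tall peaks raised their own background was not tested, so the fold ratios cannot be taken as a measure independent of height. DNAJC19 had 57 fragments whereas no peak was listed for DNAJC15, for which no ratio can be given. For MTX2 over MTX1 the ratio was 1.44 (0.862 to 2.45), for PMPCA over PMPCB 1.62 (0.839 to 3.24), and for TIMM17B over TIMM17A 1.33 (0.406 to 4.66). The intervals of these last 3 ratios include 1, so a difference was not detectable at this depth. The intervals come from the counts of 1 library and hold no biological spread.

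**Figure D5:**
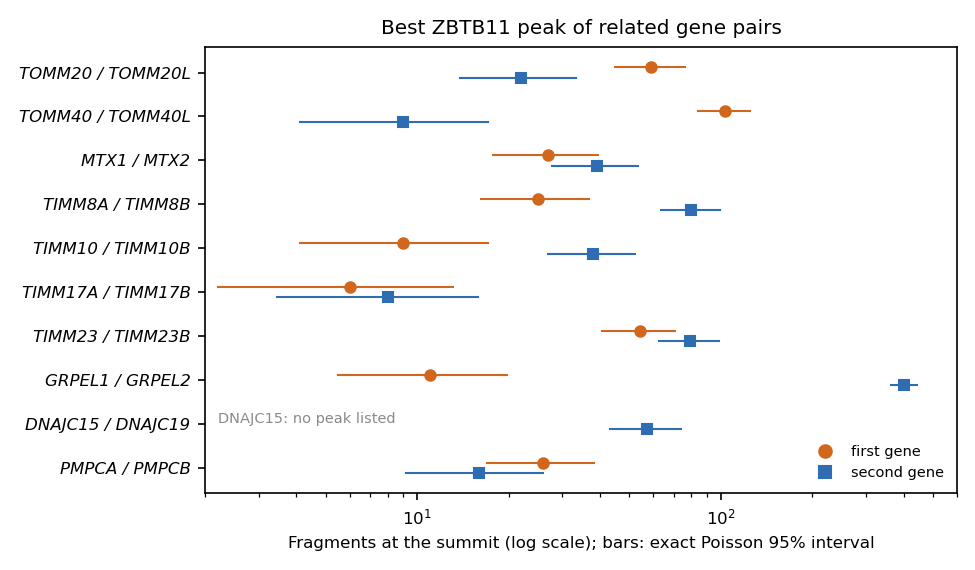
Fragments at the summit of the best ZBTB11 peak (x axis, log scale) for 10 pairs of related import genes (y axis), with the first gene of each pair as an orange circle, the second as a blue square and bars for the exact Poisson 95% interval. GRPEL2 at 401 against GRPEL1 at 11 is the widest gap, and the bars overlap for MTX1 and MTX2, PMPCA and PMPCB, and TIMM17A and TIMM17B, and also slightly for TIMM23 and TIMM23B.

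IgG served as the control, and its list could be used on chromosomes 1, 10 and 21 only, where 7 of the import genes lie. An IgG peak was listed within 3 kb for 4 of them, where 68.7% of the protein-coding genes on these chromosomes had one. The IgG peaks held 7 fragments at TOMM20, 8 at TIMM23, 9 at MTX1 and 7 at TOMM40L, none passed the q-value threshold, and those at TOMM20 and MTX1 overlapped the best ZBTB11 peak. In the whole IgG list, 1222 of 26712 peaks passed that threshold. The fragment counts were not scaled to library depth. TOMM20 had 59 fragments with ZBTB11, 8.43 times its IgG peak (95% interval 3.85 to 21.9), and MTX1 had 27, 3.0 times (1.37 to 7.25). Neither IgG peak reached the ZBTB11 summit: it ended at base 235128589 for TOMM20 and 155208719 for MTX1, with summits at 235128820 and 155209192. These ratios therefore compare neighbouring places and are not an enrichment at the summit. At TIMM23 and TOMM40L the IgG peak did not overlap the best ZBTB11 peak, so no ratio is given there: TIMM23 had 54 ZBTB11 fragments and TOMM40L 9. No IgG peak was listed within 3 kb of TIMM23B and its readthrough, with 79 ZBTB11 fragments, or of TIMM17A, with 6. The 4 tallest peaks, at TIMM29, TIMM9, GRPEL2 and TOMM22, lie on chromosomes for which the control was not used here.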

How the data were processed

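ZBTB11 and IgG ChIP-seq libraries of NCI-H1299 cells, 1 each, were grouped by sample title. Per the study's methods, the authors used BWA for alignment of paired reads to hg38 and ran MACS on each antibody on its own, with a p-value cutoff of 0.05. The deposited layout is that of later MACS releases. The deposited fold enrichment is a ratio of the summit to the local background. The p-values and q-values were deposited as −log10 p and −log10 q, and the deposited score was not used. Columns of names and strands hold no measurement.

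Fragments at the summit were solved from fold enrichment and p-value under a Poisson background with a pseudocount of 1. 100% of peaks were solved within 0.001, and the solver was tested on simulated data. No peak ended past its hg38 chromosome. Peaks off chromosomes 1 to 22, X and Y were left out. Starts came from GENCODE release 44 and promoters from RefSeq (GRCh38.p14). Since there were no replicates, no test was made, and genes were described by counts beside all protein-coding genes.

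The members and lists were chosen with earlier results of these data known. Genes were named by rule: the 10 smallest p-values, genes without a peak at a q-value of 0.05 or less, genes on chromosomes 1, 10 and 21, and 10 related pairs. The other members were named with their values to account for every gene, and the sequences beyond the summit consensus and the neighbouring genes were chosen after the values were seen. Python 3.11.15, pandas 2.3.3 and scipy 1.17.1 were used.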

Additional observations from a re-analysis of the deposited data

How the results depend on the processing

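In all, 31 alternatives were tried on 6 results, 28 planned and 3 that left out the readthrough gene and were chosen after seeing the data. Of the 31, 23 held, meaning a value within a factor of 1.5 of the main one, and 8 moved. Values that held by this rule included a consensus share of 57.1% within 100 bp (34.9% over all protein-coding genes), against 40% within 50 bp. The count of import genes past the threshold ranged from 27 (p-value of 1e-10 or less, where 31.8% of all protein-coding genes passed) to 35. The count of tall peaks was 16 at a minimum of 50 fragments (14.8% of all protein-coding genes) and 3 at 200 (4.24%), against 6 at 100 (8.33%). The share of summits with the consensus was 22.9% within 25 bp (11.3% over all protein-coding genes) and 83.3% among peaks of at least 100 fragments (43.6%), against 40% (22.5%). The count of genes with an IgG peak was 0 at a q-value of 0.05 or less, 2 where it had to overlap the best ZBTB11 peak and 1 where the overlap had to cover 50% of either, against 4. For these stricter IgG counts no share over all protein-coding genes is given, so they are not read as particular to the import genes. The count of tall peaks at divergent promoters was 6 of 6 with any annotated gene as the neighbour (61.3% of all genes with such a peak), against 3 (40.3%). The direction of these moves followed from how the alternatives were built, except for the consensus share among peaks of at least 100 fragments. That share could have gone either way. No paired analysis was possible because only 1 library stands in each group. Leaving out a replicate was likewise not possible. Peaks of about 10 fragments or fewer lie near the detection limit, and the IgG control covers 7 of the 41 genes.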
